A study of Tetranychus urticae with 24 samples.

Results

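Gene expression after piperonyl butoxide (PBO) was compared directly with gene expression after cyclosporin A (CsA) in adult females of the two-spotted spider mite, *Tetranychus urticae*. The comparison took the libraries labelled PBO or CsA, 4 of each, which are 8 of the 24 libraries of the series. All mites were adult females of the strain JP-R, 3 to 5 days old, and stood on bean leaf discs when they were sprayed. The PBO spray held 1000 ppm and the CsA spray 50 ppm, both in the same formulation of N,N-dimethylformamide and emulsifier W in water, and living mites were collected after 24 h. The doses differed, so each value below compares these sprays and not the compounds at 1 dose. Mites sprayed with the formulation alone (FORM, 4 libraries) served as the common control. JP-R is a resistant strain that was kept under selection with the acaricide cyenopyrafen until 1 week before the experiment, and both treatments and FORM share this history. RNA came from about 100 whole mites per library, out of about 600 mites sprayed per treatment. The labels call the 4 libraries of a treatment biological replicates but do not say whether each had its own spray. The p-values rest on the spread between libraries within groups, pooled over all 6 groups of the series. That spread may in part be technical.

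PBO blocks cytochrome P450 monooxygenases (P450s), the enzymes that oxidise many xenobiotics in the first phase of detoxification. CsA is a cyclic peptide that blocks ABC transporters, pumps that export xenobiotics and their conjugates, and in mammalian cells it also binds cyclophilin, after which the complex inhibits the phosphatase calcineurin. Carboxyl/choline esterases (CCEs), which hydrolyse esters, also act in the first phase, the UDP-glycosyltransferases (UGTs) and glutathione S-transferases (GSTs) conjugate compounds before export, and transporters of the major facilitator superfamily (MFS) move small solutes across membranes. PBO and CsA are not related in structure.

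The deposited counts summed to 16464540, 16664654, 16279467 and 15056763 reads on genes for PBO1 to PBO4 and to 14973451, 15239482, 14432480 and 15953098 for CsA1 to CsA4. The markers of adult females were present in all 8 libraries. The vitellogenin gene tetur20g01230, which encodes a yolk protein, stood at 169, 152, 155 and 130.1 CPM with PBO, against 143, 113, 112 and 158 CPM with CsA. CPM are counts scaled to a common library size after TMM normalisation. Replicates differed by more than sampling noise, so no library was a second copy of another.

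CsA4 stood apart from the other CsA libraries. Its total count lay within the range of the 8 libraries, while its 14794 genes with reads and its TMM factor of 0.947 were the lowest. On the first principal component of log2 CPM over the 5000 most variable genes, which held 52.3% of the variance, the PBO libraries lay at 22.5, 19.4, 19.8 and 22.1, against -32.3, -25.6 and -28.4 for CsA1 to CsA3 and 2.51 for CsA4. The labels give no batch for it, and whether the library is as labelled was not tested. CsA4 lay with the other CsA libraries in some genes, such as the sialin tetur08g06360 at 7.63, 7.37, 7.92 and 8.14 CPM in CsA1 to CsA4, against 45.9, 52.1, 49.6 and 44.3 CPM in PBO1 to PBO4. Some counts, and some but not all of the leading genes in which CsA4 was far from the other CsA libraries, are also given without it.

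In total, 1242 of 12736 genes tested (9.75%) were differentially expressed genes (DEGs) at an adjusted p under 0.05 in edgeR's quasi-likelihood test and an absolute fold change (FC) of at least 1.5. Of these DEGs, 318 were higher with PBO (2.5% of genes tested) and 924 were lower with PBO (7.26%). The DEGs that were higher with PBO had a median log2 FC of 0.86 and a maximum of 2.84, and 110 of them passed an FC of 2. The DEGs that were lower had a median of -0.91 and a minimum of -3.74, and 374 of them passed an FC of 2. Over all genes tested the median log2 FC was 0.02. The lower DEGs were weakly expressed, with a median of 3.53 CPM, against 7.67 CPM for the higher DEGs and 23.5 CPM for all genes tested. Since RNA was taken from whole mites, fewer cells of a type and less RNA per cell cannot be told apart in any of these values. Only 192 of the DEGs carry a description beyond "hypothetical" in the study's gene tables, and the other 1050 are counted here without a role.

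The libraries of the 2 treatments did not overlap in CPM for 266 of the 318 higher DEGs (83.6%) and for 555 of the 924 lower DEGs (60.1%), against 23.1% of all genes tested. With CsA1 to CsA3 alone these shares were 89.6% and 95.5%, against 41.4% of all genes tested. CsA4 lay within or beyond the range of the PBO libraries in 27 of the higher DEGs and in 346 of the lower DEGs. For 71.8% of the lower DEGs, but 14.2% of the higher DEGs, CsA4 was closer to the mean of the PBO libraries than to that of CsA1 to CsA3. Over the 1242 DEGs together, CsA4 was closer to the other treatment in 57.0%. The other libraries ranged from 1.61% (CsA1) to 9.26% (PBO3). Neither these shares nor the counts of 27 and 346 were computed over all genes tested. They set CsA4 apart among the libraries but do not show what is particular to the DEGs. Without CsA4, 384 genes were higher and 1270 lower with PBO, and 1206 of the 1242 DEGs were called again.

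**Figure D1:**
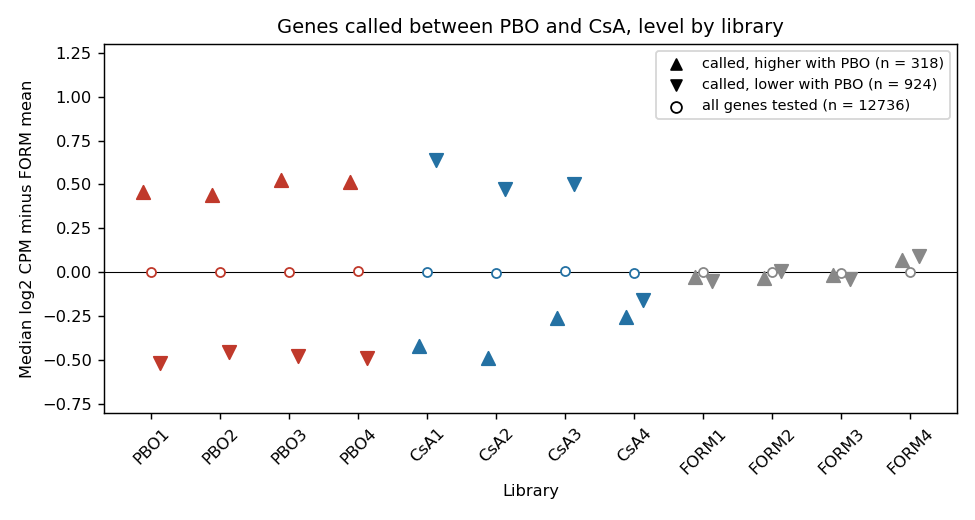
Median log2 CPM relative to the mean of the FORM libraries (y axis) in each library (x axis), for the 318 DEGs higher with PBO (triangles up), the 924 DEGs lower with PBO (triangles down) and all 12736 genes tested (circles); red is PBO, blue CsA, grey FORM. The lower DEGs stood at -0.52 to -0.45 in the PBO libraries, against 0.47 to 0.64 in CsA1 to CsA3 and -0.16 in CsA4.

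For most DEGs, formulation lay between the treatments. The FORM mean fell between the PBO and CsA means for 271 of the 318 higher DEGs and for 867 of the 924 lower DEGs. DEGs were selected for a gap between PBO and CsA, which itself makes a mean between them likely. The share over all genes tested was not computed, so the counts only describe these DEGs. The higher DEGs had a median log2 FC of 0.51 for PBO over FORM and of -0.35 for CsA over FORM. The lower DEGs had medians of -0.50 for PBO over FORM and 0.41 for CsA over FORM. These comparisons share the FORM libraries with each other, and the PBO and CsA libraries with the direct comparison, so the values are set side by side only.

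The gene groups described next were formed from the descriptions in the study's tables of DEGs, which the study chose on these same libraries. Their counts and directions are therefore not independent evidence. The groups are lists of such genes and not whole gene families, and the number tested in a group refers to its list. The values to read beside them are 9.75% of all genes tested for counts of DEGs and 23.1% for counts of genes whose libraries do not overlap.

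P450s were higher with PBO. Of 19 genes tested, 11 were higher, 1 was lower and 7 were not called, with a median log2 FC of 0.96 against 0.02 over all genes. Among the higher P450s, CYP392A11 (tetur03g00970) had the largest log2 FC, and it is an enzyme known to hydroxylate cyenopyrafen. CYP392A11 was expressed at 1690.3, 1761, 1535 and 2044 CPM in mites treated with PBO, against 383, 349.8, 482 and 421 CPM in mites treated with CsA (log2 FC 2.10 ± 0.12 (SE), adjusted p = 7.3e-12). All PBO libraries were above all CsA libraries, and FORM averaged 459.6 ± 70.4 CPM (SD, n = 4), close to CsA. CYP392A12 (tetur03g00830), of the same subfamily and scaffold, stood at 612, 597, 557 and 639.7 CPM with PBO, against 189.5, 178, 217 and 236 CPM with CsA (log2 FC 1.55 ± 0.12 (SE), adjusted p = 4.8e-09).

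CYP392A16 (tetur06g04520), which is known to metabolise abamectin, stood at 1839.8, 1929, 1952 and 1892 CPM with PBO, against 877, 908, 1049 and 1091 CPM with CsA (log2 FC 0.96 ± 0.11 (SE), adjusted p = 1.5e-06). The most abundant P450 of the list was CYP392E8 (tetur27g00350), with 3527, 3582, 3557 and 3774 CPM with PBO, against 1685, 1503, 1895 and 1805 CPM with CsA (log2 FC 1.07 ± 0.09 (SE), adjusted p = 1.2e-08). CYP392D2 (tetur03g04990) was also higher with PBO, at 627, 562, 716 and 695 CPM with PBO, against 211, 239, 280.5 and 241 CPM with CsA (log2 FC 1.42 ± 0.12 (SE), adjusted p = 9.1e-09). Each of these P450s was higher in every PBO library than in any CsA library.

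The P450s that were not called include the CYP385C genes. CYP385C4 (tetur11g05520) stood at 13.7, 10.04, 8.97 and 13.3 CPM with PBO, against 13.3, 14.7, 10.3 and 18.01 CPM with CsA (log2 FC -0.29 ± 0.20 (SE), adjusted p = 0.28), and the groups overlapped, although both lay above the FORM mean of 6.48 ± 0.271 CPM (SD, n = 4). The copies of CYP385C3 and CYP385C4 are alike in name and may share reads, so their single values are uncertain. The 1 P450 that was lower with PBO is annotated as a probable pseudogene, tetur21g00560, with 1.65, 1.23, 1.87 and 1.01 CPM with PBO, against 9.04, 5.95, 9.23 and 2.05 CPM with CsA (log2 FC -2.17 ± 0.37 (SE), adjusted p = 1.4e-04). Its log2 FC was -2.48 without CsA4, and without PBO4 the list held 2 lower P450s.

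Of 6 CCEs tested, 3 were higher with PBO, with a median log2 FC of 0.79. That count was 2 in DESeq2, in a test against an FC of 1.5, and without PBO1, PBO3, PBO4, CsA1 or CsA2. In a fit of the 8 libraries only it was 4. In edgeR, DESeq2 and limma-voom 0 were lower, also at an unadjusted p under 0.05. The CCE tetur01g10820 stood at 25.2, 33.5, 26.4 and 25.6 CPM with PBO, against 9.98, 7.03, 13.2 and 9.80 CPM with CsA (log2 FC 1.47 ± 0.14 (SE), adjusted p = 1.1e-07), with a FORM mean of 22.96 ± 0.683 CPM (SD, n = 4). Its neighbour tetur01g10810 stood at 10.5, 7.02, 15.2 and 16.9 CPM with PBO, against 6.50, 4.66, 3.34 and 3.24 CPM with CsA (log2 FC 1.48 ± 0.28 (SE), adjusted p = 4.3e-04), with a FORM mean of 4.62 ± 0.647 CPM (SD, n = 4). The first was thus near its FORM level after PBO and the second near its FORM level after CsA. TuCCE25 (tetur04g06670) was not called, at 80.1, 81.3, 97.8 and 98.1 CPM with PBO, against 85.2, 86.8, 86.7 and 81.4 CPM with CsA (log2 FC 0.07 ± 0.08 (SE), adjusted p = 0.55).

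**Figure D2:**
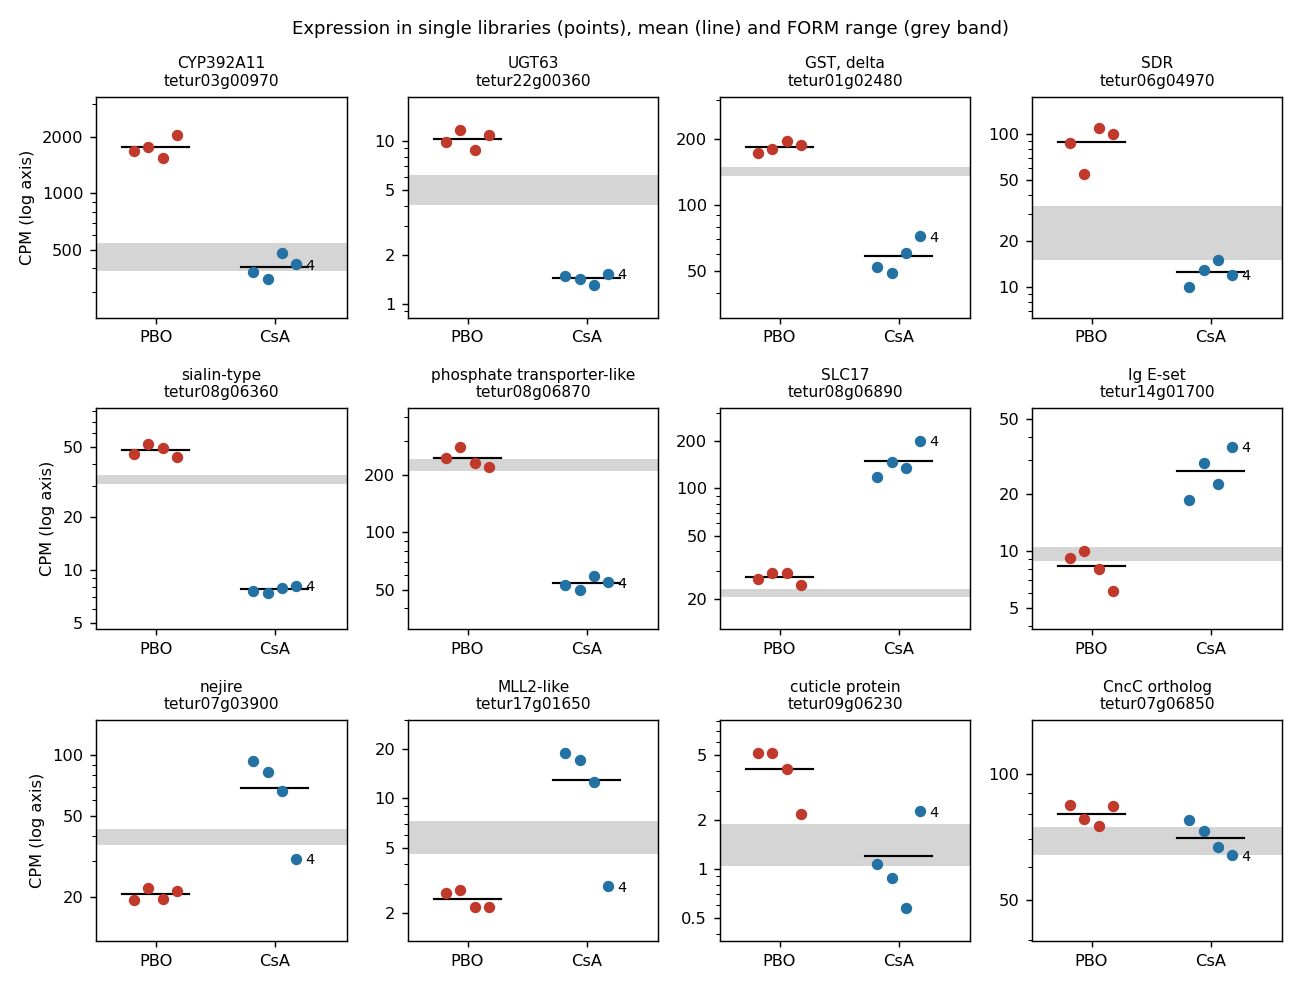
Expression in CPM (log axis) of 12 named genes in the 4 PBO libraries (red, left) and the 4 CsA libraries (blue, right, with CsA4 marked 4); lines are means and the grey band is the range of the 4 FORM libraries. CYP392A11, UGT63, the delta GST, the reductase, the sialin and the phosphate transporter do not overlap between treatments, while CsA4 approaches the PBO libraries for nejire and the MLL2-like gene and passes PBO4 for the cuticle protein.

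Short-chain dehydrogenases and reductases, which reduce or oxidise carbonyls and alcohols, were higher with PBO. Of 10 tested, 8 were higher, with a median log2 FC of 1.55, and 0 were lower in edgeR, DESeq2 and limma-voom or at an unadjusted p under 0.05. The gene tetur06g04970, described as a 3-oxoacyl-acyl-carrier-protein reductase, stood at 88.0, 55.1, 110.1 and 101 CPM in mites treated with PBO, against 10.04, 12.98, 14.96 and 12.1 CPM in mites treated with CsA (log2 FC 2.82 ± 0.27 (SE), adjusted p = 8.4e-08). Every PBO library was above every CsA library, although PBO2 lay well under the other PBO libraries. FORM averaged 24.6 ± 7.93 CPM (SD, n = 4), and the log2 FC over FORM was 1.85 for PBO and -0.98 for CsA. In tetur06g05080, by contrast, the FORM mean of 436 ± 15.7 CPM (SD, n = 4) was within the PBO range, with 443, 429.97, 557 and 539 CPM with PBO, against 182, 165, 231 and 170.2 CPM with CsA (log2 FC 1.40 ± 0.11 (SE), adjusted p = 2.8e-09). The reductase tetur28g01140 was near FORM after CsA instead, at 129.7, 101, 127 and 126 CPM with PBO, against 42.7, 28.99, 41.0 and 36.4 CPM with CsA (log2 FC 1.70 ± 0.17 (SE), adjusted p = 3.1e-07), with a FORM mean of 41.6 ± 8.53 CPM (SD, n = 4).

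Intradiol ring-cleavage dioxygenases, enzymes that open catechol rings, were higher with PBO in 3 of 4 genes, with a median log2 FC of 1.19. The most abundant, tetur13g04550, stood at 706, 796, 757 and 899.8 CPM with PBO, against 213, 189, 311 and 257 CPM with CsA (log2 FC 1.70 ± 0.19 (SE), adjusted p = 1.4e-06), and its FORM mean of 293 ± 48.7 CPM (SD, n = 4) was near CsA. tetur28g01250 stood at 27.6, 24.1, 27.4 and 42.9 CPM with PBO, against 7.57, 7.03, 11.1 and 11.6 CPM with CsA (log2 FC 1.71 ± 0.30 (SE), adjusted p = 1.6e-04). The fourth member, tetur12g04671, was not called (log2 FC -0.43 ± 0.18 (SE), adjusted p = 0.073), but without PBO2 it was called lower (log2 FC -0.66) and 2 members were higher. Of 3 aldo-keto reductases, 2 were higher and 1 lower with PBO, and tetur02g11530 among the higher had log2 FC 0.62 ± 0.10 (SE), adjusted p = 4.8e-05. The call of tetur02g11530 was lost without CsA1 or without CsA4, with a log2 FC of 0.55 in the second case.

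UGTs, which attach sugars to small molecules, were higher with PBO in 6 of 14 genes (median log2 FC 0.62), and 0 were lower in edgeR, DESeq2 and limma-voom or at an unadjusted p under 0.05. The gene teturUGT63 (tetur22g00360) had the highest log2 FC of all DEGs. Its expression was 9.81, 11.7, 8.78 and 10.8 CPM in mites treated with PBO, against 1.47, 1.42, 1.31 and 1.52 CPM in mites treated with CsA (log2 FC 2.84 ± 0.18 (SE), adjusted p = 1.1e-10). FORM lay between, at 4.99 ± 1.01 CPM (SD, n = 4). teturUGT65 (tetur22g00420) followed at 9.01, 13.3, 8.03 and 9.70 CPM with PBO, against 1.74, 1.76, 2.62 and 2.38 CPM with CsA (log2 FC 2.24 ± 0.25 (SE), adjusted p = 1.3e-06), also with FORM between, at 5.25 ± 1.76 CPM (SD, n = 4). The more abundant teturUGT11 (tetur02g09850) stood at 296, 309.9, 302 and 293 CPM with PBO, against 156, 153, 192 and 186 CPM with CsA (log2 FC 0.80 ± 0.14 (SE), adjusted p = 1.6e-04), where the FORM mean of 176 ± 19.2 CPM (SD, n = 4) was near CsA. Without CsA4, 8 UGTs were higher. The 6 called UGTs lie on only 2 scaffolds, 4 on scaffold 22 and 2 on scaffold 2.

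All 6 GSTs of the list, which were chosen from the study's tables of DEGs, were higher with PBO. Their log2 FCs were 1.02 to 1.65, with no overlap between treatments in 6 of 6, against 23.1% of all genes tested. GSTs join glutathione to electrophilic compounds, and 5 of the 6 belong to the delta class and 1 to the mu class. The delta GST tetur01g02480 stood at 172, 179.98, 195 and 188 CPM in mites treated with PBO, against 52.5, 49.2, 60.4 and 72.3 CPM in mites treated with CsA (log2 FC 1.65 ± 0.09 (SE), adjusted p = 1.0e-11). FORM averaged 142 ± 6.67 CPM (SD, n = 4), so that CsA was further from FORM (log2 FC -1.28) than PBO (log2 FC 0.37). The delta GST tetur29g00220 showed the other order, with 96.7, 66.9, 116 and 98.5 CPM with PBO, against 26.9, 30.9, 35.2 and 40.9 CPM with CsA (log2 FC 1.5001 ± 0.13 (SE), adjusted p = 3.4e-08) and log2 FCs over FORM of 1.303 for PBO and -0.20 for CsA. The most abundant delta GST, tetur26g01490, stood at 524, 558, 637 and 652 CPM with PBO, against 238, 242, 277 and 268 CPM with CsA (log2 FC 1.21 ± 0.07 (SE), adjusted p = 5.0e-11), with FORM between at 412 ± 18.3 CPM (SD, n = 4). The mu-class GST tetur05g05190 had 175, 175, 173 and 176 CPM with PBO, against 79.3, 64.9, 78.0 and 122 CPM with CsA (log2 FC 1.02 ± 0.12 (SE), adjusted p = 2.4e-06). As a list, GSTs had median log2 FCs of 0.46 for PBO over FORM and -0.69 for CsA over FORM.

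Of 3 ABC transporters in the study's tables, all of class C, 1 was higher with PBO and the others were not called. tetur28g01950 stood at 29.8, 32.5, 24.8 and 26.4 CPM with PBO, against 14.1, 12.6, 15.3 and 13.4 CPM with CsA (log2 FC 1.04 ± 0.15 (SE), adjusted p = 1.9e-05). tetur14g02300 stood at 5.45, 4.62, 5.60 and 5.07 CPM with PBO, against 5.56, 5.14, 5.16 and 2.78 CPM with CsA (log2 FC 0.16 ± 0.17 (SE), adjusted p = 0.5), a range set by a low CsA4. tetur14g02320 stood at 9.01, 8.68, 8.65 and 6.98 CPM with PBO, against 11.7, 9.19, 11.04 and 8.28 CPM with CsA (log2 FC -0.27 ± 0.13 (SE), adjusted p = 0.13).

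The MFS family lists hold MFS genes that the study called between CsA and FORM on these libraries, and not whole families. All 10 listed anion:cation symporters were called, 7 higher and 3 lower with PBO. Of these, 10 of 10 did not overlap, against 23.1% of all genes tested, but they were chosen for a change with CsA. Of the 9 other MFS transporters listed, 5 were higher with PBO and 4 were not called (median log2 FC 0.68). The anion:cation symporter family is known for carrying phosphate, sialic acid or glutamate. The sialin-type gene tetur08g06360 stood at 45.9, 52.1, 49.6 and 44.3 CPM in mites treated with PBO, against 7.63, 7.37, 7.92 and 8.14 CPM in mites treated with CsA (log2 FC 2.63 ± 0.13 (SE), adjusted p = 3.8e-12). The CsA libraries lay within a narrow range far under PBO, and FORM averaged 32.8 ± 2.23 CPM (SD, n = 4), nearer to PBO. The phosphate transporter-like gene tetur08g06870 stood at 247, 279.7, 232 and 221 CPM with PBO, against 52.9, 49.7, 59.5 and 54.7 CPM with CsA (log2 FC 2.18 ± 0.11 (SE), adjusted p = 3.8e-12). Its FORM mean of 229 ± 14.1 CPM (SD, n = 4) was at the PBO level, with log2 FCs over FORM of 0.10 for PBO and -2.08 for CsA.

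A gene numbered close to it on the same scaffold went the other way. tetur08g06890, described as solute carrier family 17, stood at 26.9, 29.1, 29.1 and 24.5 CPM in mites treated with PBO, against 118, 146, 135 and 200.3 CPM in mites treated with CsA (log2 FC -2.45 ± 0.14 (SE), adjusted p = 7.3e-12). Here too PBO was near the FORM mean of 21.97 ± 1.04 CPM (SD, n = 4), while CsA was at a log2 FC of 2.77 over FORM. The phosphate transporter-like genes tetur05g05720 (log2 FC -0.85, adjusted p = 0.039) and tetur01g08670 (log2 FC -0.74, adjusted p = 0.02) were the other members of the anion:cation symporter list that were lower with PBO. Without PBO2 or without PBO4, 1 member and not 3 was called lower.

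Of 5 genes of the fucose:H+ symporter family, 3 were higher and 1 was lower with PBO. Among them tetur40g00030 stood at 30.1, 28.5, 32.3 and 40.7 CPM with PBO, against 7.37, 5.001, 6.90 and 6.16 CPM with CsA (log2 FC 2.37 ± 0.21 (SE), adjusted p = 4.5e-08), and the lower tetur05g05100 stood at 1.47, 1.91, 1.74 and 2.09 CPM with PBO, against 4.62, 5.54, 6.68 and 4.97 CPM with CsA (log2 FC -1.59 ± 0.21 (SE), adjusted p = 9.1e-06). All 4 listed folate or heme carriers were higher with PBO, with a median log2 FC of 0.91. tetur04g02440, 1 of these carriers, stood at 79.9, 69.02, 87.3 and 93.7 CPM with PBO, against 40.4, 49.6, 40.8 and 34.8 CPM with CsA (log2 FC 0.99 ± 0.13 (SE), adjusted p = 6.5e-06), and its FORM mean of 92.0 ± 7.05 CPM (SD, n = 4) was at the PBO level. As a list the folate or heme carriers had median log2 FCs of -0.13 for PBO over FORM and -1.005 for CsA over FORM. tetur01g06580, which the study names, was not called, at 13.6, 13.4, 13.8 and 10.1 CPM with PBO, against 13.5, 14.5, 14.02 and 14.2 CPM with CsA (log2 FC -0.14 ± 0.10 (SE), adjusted p = 0.29). Both treatments lay above its FORM mean of 7.58 ± 0.663 CPM (SD, n = 4).

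**Figure D3:**
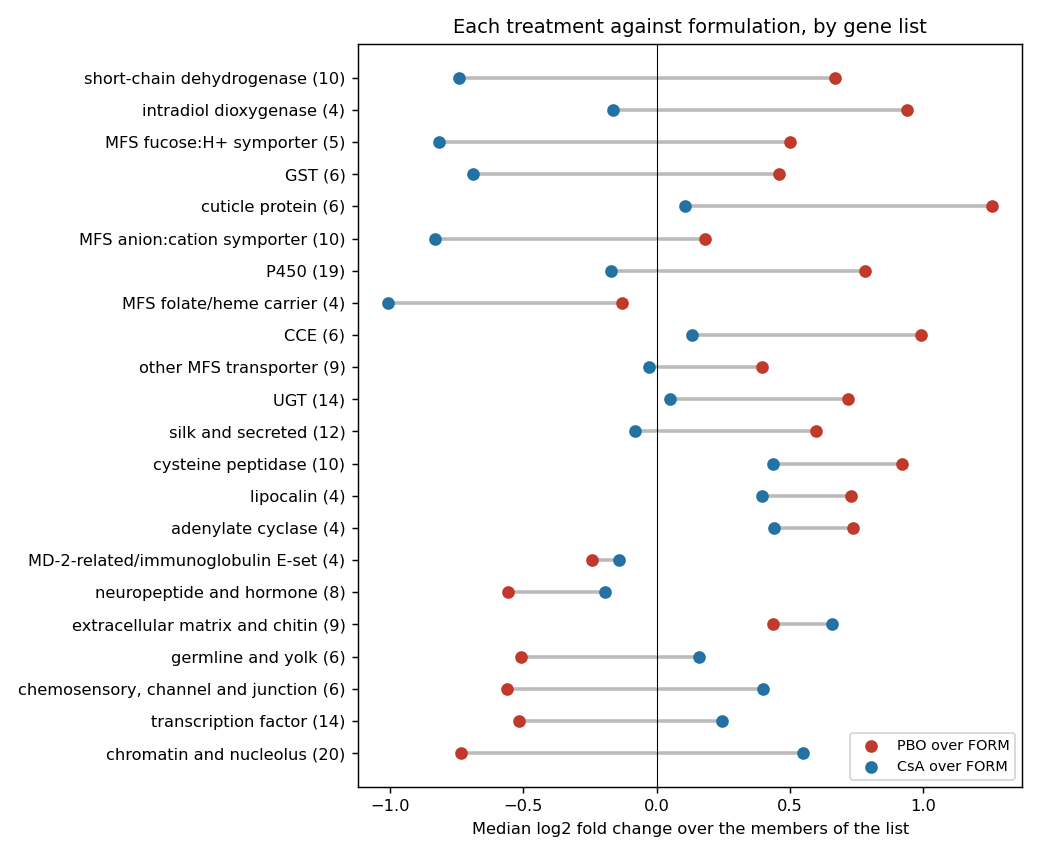
Median log2 FC over the members of each list with at least 4 genes tested, for PBO over FORM (red) and CsA over FORM (blue); numbers in brackets are genes tested, and both comparisons share the FORM libraries. P450s stood at 0.78 for PBO and -0.17 for CsA, folate or heme carriers at -0.13 and -1.005, and chromatin and nucleolus genes at -0.73 and 0.55. The folate or heme carriers were chosen from the study's DEGs of CsA against FORM.

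Side by side against formulation, the lists thus differed in which treatment lay away from FORM. Which of the study's comparisons the members were chosen from bears on this, so it is not independent evidence. The MFS family lists came from the study's DEGs of CsA against FORM. The 9 other MFS transporters listed were at a median log2 FC of 0.39 for PBO over FORM and -0.03 for CsA over FORM. P450s were at a median log2 FC of 0.78 for PBO over FORM and -0.17 for CsA over FORM. Cuticle proteins were at 1.26 for PBO over FORM and 0.11 for CsA over FORM. Anion:cation symporters were at 0.18 for PBO over FORM and -0.83 for CsA over FORM, and short-chain dehydrogenases at 0.67 for PBO over FORM and -0.74 for CsA over FORM. Some lists had medians above 0 with both sprays. Among them, cysteine peptidases, adenylate cyclases and lipocalins were at 0.92, 0.74 and 0.73 for PBO over FORM and at 0.44, 0.44 and 0.40 for CsA over FORM. ABC transporters were at 0.47 for PBO over FORM and 0.42 for CsA over FORM. Extracellular matrix and chitin genes were further from FORM with CsA, at 0.44 for PBO over FORM and 0.66 for CsA over FORM. By mean log2 CPM of that list, CsA1 to CsA3 stood at 3.72, 3.48 and 3.82. CsA4 at 3.07 and the PBO libraries at 3.01 to 3.10 lay within the FORM range of 2.91 to 3.33.

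Among 10 cysteine peptidases, a class that includes digestive enzymes of the mite gut, 5 were higher and 1 was lower with PBO, and 3 were higher without CsA2. Cathepsin B tetur28g01430 stood at 135, 127, 127 and 162 CPM with PBO, against 68.2, 69.3, 73.1 and 79.1 CPM with CsA (log2 FC 0.93 ± 0.13 (SE), adjusted p = 1.8e-05). The cathepsin B tetur24g00270 was the lower one, at 2.82, 3.26, 4.42 and 2.54 CPM with PBO, against 6.09, 4.93, 7.34 and 4.44 CPM with CsA (log2 FC -0.80 ± 0.21 (SE), adjusted p = 0.006). The weakly expressed peptidase tetur31g00690 had the largest log2 FC of the list, with 3.74, 3.39, 3.42 and 2.92 CPM with PBO, against 0.937, 0.473, 1.16 and 0.463 CPM with CsA (log2 FC 2.15 ± 0.32 (SE), adjusted p = 3.2e-05). Adenylate cyclases, which make cyclic AMP, included 1 gene lower with PBO, tetur11g05110 at 2.39, 2.16, 1.62 and 2.92 CPM with PBO, against 4.29, 3.72, 3.995 and 4.90 CPM with CsA (log2 FC -0.90 ± 0.20 (SE), adjusted p = 0.0016). No other adenylate cyclase was called, but 1 was higher with PBO without PBO2 or without CsA4. Lipocalins are small carriers of hydrophobic molecules, and 0 of 4 were called in edgeR or DESeq2, 1 was higher at an unadjusted p under 0.05 and 2 in limma-voom. CsA2 exceeded every PBO library for tetur16g03410, with 15.5, 15.5, 16.7 and 16.9 CPM with PBO, against 7.30, 23.7, 5.23 and 9.20 CPM with CsA (log2 FC 0.50 ± 0.28 (SE), adjusted p = 0.18), and without CsA2 2 lipocalins were called higher with PBO, or 1 without PBO4.

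Cuticle proteins were higher with PBO in 5 of 6 genes, but the treatments overlapped in all 6. tetur09g06230 stood at 5.09, 5.11, 4.11 and 2.16 CPM with PBO, against 1.07, 0.879, 0.581 and 2.25 CPM with CsA (log2 FC 1.77 ± 0.33 (SE), adjusted p = 3.1e-04), or a log2 FC of 2.27 without CsA4. tetur12g02060, the most abundant, stood at 179.5, 235, 161 and 117 CPM with PBO, against 61.7, 62.9, 77.7 and 118 CPM with CsA (log2 FC 1.11 ± 0.28 (SE), adjusted p = 0.0043). PBO4 was the lowest of the PBO libraries and CsA4 the highest of the CsA libraries in both genes. The mean log2 CPM of the list was 4.29, 4.50, 4.10 and 3.25 in PBO1 to PBO4, against 2.64, 2.57, 2.58 and 3.53 in CsA1 to CsA4, and 2.46 to 3.12 in the FORM libraries. Without CsA4 all 6 were called, with a median log2 FC of 1.45 against 1.12 with it.

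**Figure D4:**
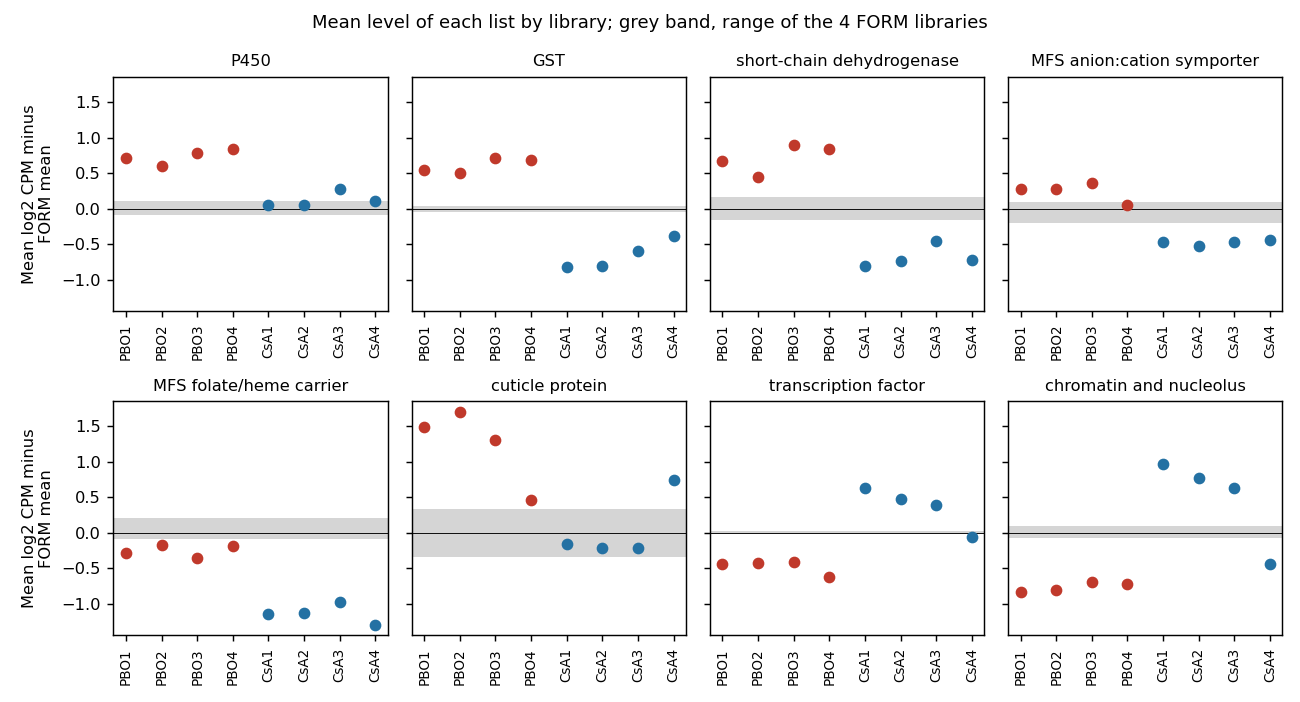
Mean log2 CPM of the members of 8 lists relative to the FORM mean (y axis) in each PBO library (red) and CsA library (blue); the grey band is the range of the 4 FORM libraries. The GST and MFS lists separate the PBO from the CsA libraries without overlap, whereas CsA4 lies close to PBO for chromatin and nucleolus genes and above PBO4 for cuticle proteins.

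Genes of chromatin, transcription and the nucleolus were lower with PBO. All 20 tested were called, with a median log2 FC of -1.27, and 15 of the 20 did not overlap, against 23.1% of all genes tested. nejire (tetur07g03900), the counterpart of a Drosophila histone acetyltransferase that acts as a transcriptional coactivator, stood at 19.4, 22.2, 19.5 and 21.4 CPM in mites treated with PBO, against 93.7, 83.1, 66.8 and 30.7 CPM in mites treated with CsA (log2 FC -1.73 ± 0.22 (SE), adjusted p = 5.3e-06). CsA1 to CsA3 were far above PBO, and CsA4 was above PBO but under the FORM mean of 39.1 ± 3.04 CPM (SD, n = 4). The gene tetur17g01650, described as similar to MLL2, a histone methyltransferase of mammals, stood at 2.64, 2.77, 2.18 and 2.16 CPM with PBO, against 18.9, 17.2, 12.6 and 2.91 CPM with CsA (log2 FC -2.40 ± 0.34 (SE), adjusted p = 2.2e-05). In that gene CsA4 was just above the highest PBO library, and without CsA4 the log2 FC was -2.74, as it was -1.98 for nejire. The nucleolar protein p130 (tetur03g06070) showed the same order, at 8.64, 9.17, 10.59 and 11.04 CPM with PBO, against 49.8, 39.9, 43.4 and 11.98 CPM with CsA (log2 FC -1.88 ± 0.26 (SE), adjusted p = 1.4e-05), and a log2 FC of -2.17 without CsA4. The Mediator subunit Med1 (tetur26g02090), which links activators to RNA polymerase, stood at 31.1, 31.8, 34.2 and 33.7 CPM with PBO, against 91.9, 77.3, 76.6 and 45.2 CPM with CsA (log2 FC -1.15 ± 0.13 (SE), adjusted p = 1.7e-06).

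The mean log2 CPM of these 20 genes was 4.20, 4.24, 4.34 and 4.32 in PBO1 to PBO4, against 6.01, 5.82, 5.68 and 4.59 in CsA1 to CsA4, and 4.96 to 5.13 in the FORM libraries. CsA1 to CsA3 were thus above FORM and CsA4 was under it. Without CsA4 the list had a median log2 FC of -1.496 and again 20 of 20 genes lower with PBO. The lower DEGs as a whole showed the same order, at a median of 0.47 to 0.64 log2 CPM above FORM in CsA1 to CsA3 and of -0.16 relative to FORM in CsA4. What sets CsA4 apart was not tested.

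Transcription factors were lower with PBO in 12 of 14 genes, with a median log2 FC of -0.74. Kr-2 (tetur08g05590), named after a zinc finger gene of Drosophila, stood at 35.9, 36.9, 37.4 and 35.96 CPM with PBO, against 82.6, 82.0, 68.4 and 57.0 CPM with CsA (log2 FC -0.99 ± 0.08 (SE), adjusted p = 1.7e-08). The basic helix-loop-helix factor tetur04g05450 stood at 2.76, 2.16, 3.98 and 2.35 CPM with PBO, against 13.3, 8.99, 12.3 and 2.85 CPM with CsA (log2 FC -1.73 ± 0.30 (SE), adjusted p = 1.5e-04), and CsA4 lay within the PBO range (log2 FC -2.04 without it). The homeobox gene cut (tetur29g01500) stood at 9.62, 11.2, 9.46 and 7.55 CPM with PBO, against 22.6, 19.3, 20.2 and 9.60 CPM with CsA (log2 FC -0.92 ± 0.18 (SE), adjusted p = 5.9e-04), with the same overlap (log2 FC -1.13 without CsA4). Without CsA4 all 14 were lower with PBO, but without CsA1 or CsA2 10 were, and without PBO4 11 were. In a test against an FC of 1.5, 3 were lower. The CncC orthologs, factors known in insects to switch on detoxification genes, were not called, and 1 of them passed the adjusted p alone. tetur07g06850 stood at 84.1, 77.8, 75.1 and 83.8 CPM with PBO, against 77.5, 72.9, 66.8 and 63.8 CPM with CsA (log2 FC 0.19 ± 0.07 (SE), adjusted p = 0.04), and tetur07g04600 stood at 9.75, 9.79, 8.97 and 10.1 CPM with PBO, against 10.4, 11.02, 11.9 and 9.998 CPM with CsA (log2 FC -0.17 ± 0.09 (SE), adjusted p = 0.17).

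Genes of the extracellular matrix and chitin were split, with 4 higher and 4 lower with PBO out of 9. Tenectin (tetur02g08240), a matrix protein, stood at 2.21, 1.601, 1.99 and 2.22 CPM with PBO, against 10.8, 9.53, 10.02 and 3.51 CPM with CsA (log2 FC -2.07 ± 0.27 (SE), adjusted p = 6.1e-06). The fibrillar collagen precursor tetur28g00630 stood at 4.05, 5.17, 5.73 and 4.69 CPM with PBO, against 20.6, 17.8, 17.8 and 6.75 CPM with CsA (log2 FC -1.68 ± 0.24 (SE), adjusted p = 2.0e-05). The chitinase tetur23g02160, an enzyme that degrades chitin, stood at 2.57, 2.77, 2.37 and 2.60 CPM with PBO, against 12.4, 9.39, 10.8 and 4.17 CPM with CsA (log2 FC -1.83 ± 0.26 (SE), adjusted p = 1.9e-05). CsA4 was the lowest CsA library in all 3, and without it the log2 FC was -2.33 for tenectin, -1.93 for the collagen and -2.07 for the chitinase. Without CsA4, 3 genes of the list were higher and 4 lower. Dopa decarboxylase (tetur22g00750), which makes precursors for cuticle tanning, was higher with PBO, at 88.6, 82.8, 93.9 and 82.4 CPM with PBO, against 53.5, 49.7, 61.4 and 56.9 CPM with CsA (log2 FC 0.65 ± 0.14 (SE), adjusted p = 0.0012), and there CsA4 lay among the other CsA libraries.

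Of 6 germline and yolk genes, 3 were lower with PBO, and 0 were higher in edgeR, DESeq2 and limma-voom or at an unadjusted p under 0.05. The vasa gene tetur10g01960, an RNA helicase of germ cells, stood at 107, 120.2, 100.1 and 87.1 CPM with PBO, against 181, 174, 160.03 and 144 CPM with CsA (log2 FC -0.67 ± 0.08 (SE), adjusted p = 5.3e-06), and the vasa gene tetur10g01980 at 89.2, 88.2, 79.5 and 65.5 CPM with PBO, against 140.3, 129, 120.2 and 121 CPM with CsA (log2 FC -0.66 ± 0.08 (SE), adjusted p = 2.0e-06). In both, PBO4 was the lowest library and no libraries overlapped between treatments. Cutoff-like tetur21g03230 stood at 9.07, 11.3, 11.6 and 9.89 CPM with PBO, against 20.5, 17.9, 19.5 and 14.3 CPM with CsA (log2 FC -0.78 ± 0.14 (SE), adjusted p = 1.5e-04). The vitellogenin gene tetur20g01230 was not called (log2 FC 0.20, adjusted p = 0.36), nor was tetur07g05480, a vitellogenin fused with superoxide dismutase (log2 FC 0.17, adjusted p = 0.39).

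Silk and secreted protein genes were higher with PBO in 5 of 12 and lower in 2, or lower in 1 without PBO1, PBO2, CsA1 or CsA3. The putative salivary gland peptide tetur05g04720 stood at 31.4, 34.6, 29.2 and 41.4 CPM with PBO, against 13.8, 11.5, 18.02 and 14.4 CPM with CsA (log2 FC 1.24 ± 0.20 (SE), adjusted p = 5.7e-05). Fibroin tetur04g08890, a silk protein by its description, stood at 0.674, 0.493, 0.623 and 1.08 CPM with PBO, against 3.88, 3.85, 2.98 and 1.46 CPM with CsA (log2 FC -2.08 ± 0.29 (SE), adjusted p = 1.7e-05). The glycine-rich tetur02g05490 stood at 1.35, 2.65, 2.24 and 0.951 CPM with PBO, against 0.268, 0.270, 0.291 and 1.39 CPM with CsA (log2 FC 1.67 ± 0.44 (SE), adjusted p = 0.0056), and without CsA4 its log2 FC was 2.67. Of 8 neuropeptide and hormone genes, 0 were called in edgeR, 1 was lower in DESeq2 and 1 was higher in limma-voom, and at an unadjusted p under 0.05 there were 4 lower and 1 higher. Without CsA2, CsA3 or CsA4 1 of them was called lower, and without PBO1 or CsA3 1 was called higher. Of 6 chemosensory, channel and junction genes, 2 were lower with PBO, among them the ionotropic receptor tetur30g01550 at 2.08, 1.79, 2.18 and 2.16 CPM with PBO, against 4.82, 4.87, 5.16 and 2.65 CPM with CsA (log2 FC -1.09 ± 0.18 (SE), adjusted p = 9.8e-05). Without CsA4, 3 genes of that list were lower, and tetur30g01550 had a log2 FC of -1.27.

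Immunoglobulin E-set genes share a fold that occurs in lipid-binding secreted proteins. Of 4 tested, 1 was higher with PBO, 1 was lower and 2 were not called. Those not called were tetur01g02650 (log2 FC -0.10) and tetur14g02070 (log2 FC 0.06). tetur14g02060 was higher with PBO at 585, 656, 654 and 526 CPM with PBO, against 232, 285, 346 and 373 CPM with CsA (log2 FC 0.97 ± 0.11 (SE), adjusted p = 1.7e-06), with a FORM mean of 710.4 ± 81.2 CPM (SD, n = 4). tetur14g01700 was lower with PBO at 9.13, 9.97, 8.03 and 6.15 CPM with PBO, against 18.6, 29.2, 22.5 and 35.4 CPM with CsA (log2 FC -1.67 ± 0.27 (SE), adjusted p = 7.6e-05), with a FORM mean of 9.92 ± 0.781 CPM (SD, n = 4). In both genes PBO lay near FORM and CsA away from it, under FORM in the first and above FORM in the second.

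Among the largest changes outside these groups, 2 genes described as P-loop nucleoside triphosphatases were lower with PBO. tetur37g00420 stood at 8.46, 9.61, 11.6 and 10.5 CPM with PBO, against 53.5, 49.6, 46.1 and 16.8 CPM with CsA (log2 FC -2.04 ± 0.22 (SE), adjusted p = 6.9e-07), and tetur37g00490 at 14.2, 13.4, 17.6 and 17.2 CPM with PBO, against 88.7, 76.8, 66.5 and 22.98 CPM with CsA (log2 FC -2.03 ± 0.24 (SE), adjusted p = 3.1e-06). The cystine-knot cytokine tetur01g14780 stood at 2.27, 2.40, 3.61 and 2.35 CPM with PBO, against 12.7, 10.3, 11.4 and 4.50 CPM with CsA (log2 FC -1.87 ± 0.23 (SE), adjusted p = 3.9e-06), and the Notch-like tetur12g01120 at 3.31, 3.08, 2.55 and 2.73 CPM with PBO, against 13.1, 9.80, 10.2 and 4.30 CPM with CsA (log2 FC -1.68 ± 0.22 (SE), adjusted p = 7.8e-06). In these 4 genes CsA4 was the lowest CsA library and still above PBO, and without it their log2 FCs ran from -2.31 to -1.92. The hypothetical protein tetur30g01790 was higher with PBO, at 84.5, 56.2, 127 and 154 CPM with PBO, against 23.7, 17.98, 22.3 and 14.2 CPM with CsA (log2 FC 2.43 ± 0.22 (SE), adjusted p = 4.9e-08). Among genes without a description, tetur08g06400 was higher with PBO at 1.10, 1.17, 1.62 and 1.01 CPM with PBO, against 0.201, 0.0676, 0.291 and 0.132 CPM with CsA (log2 FC 2.79 ± 0.41 (SE), adjusted p = 2.6e-05), and tetur23g01340 was lower at 0.123, 0.246, 0.311 and 0.190 CPM with PBO, against 1.27, 1.35, 1.31 and 0.795 CPM with CsA (log2 FC -2.40 ± 0.35 (SE), adjusted p = 2.7e-05). Of the genes the study names, the copper/zinc superoxide dismutase tetur02g11180 passed the adjusted p but not the FC, at 199.7, 206, 199.6 and 190.3 CPM with PBO, against 274, 284, 313 and 243 CPM with CsA (log2 FC -0.48 ± 0.07 (SE), adjusted p = 1.5e-05). Fatty acid synthase (tetur04g02370) was higher with PBO, at 7.91, 8.44, 7.22 and 8.05 CPM with PBO, against 4.69, 4.80, 4.58 and 4.97 CPM with CsA (log2 FC 0.73 ± 0.12 (SE), adjusted p = 9.1e-05), and glucose dehydrogenase (tetur03g09330) was lower, at 127, 126, 115 and 99.8 CPM with PBO, against 180.1, 202, 192 and 159.97 CPM with CsA (log2 FC -0.65 ± 0.08 (SE), adjusted p = 4.2e-06).

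**Figure D5:**
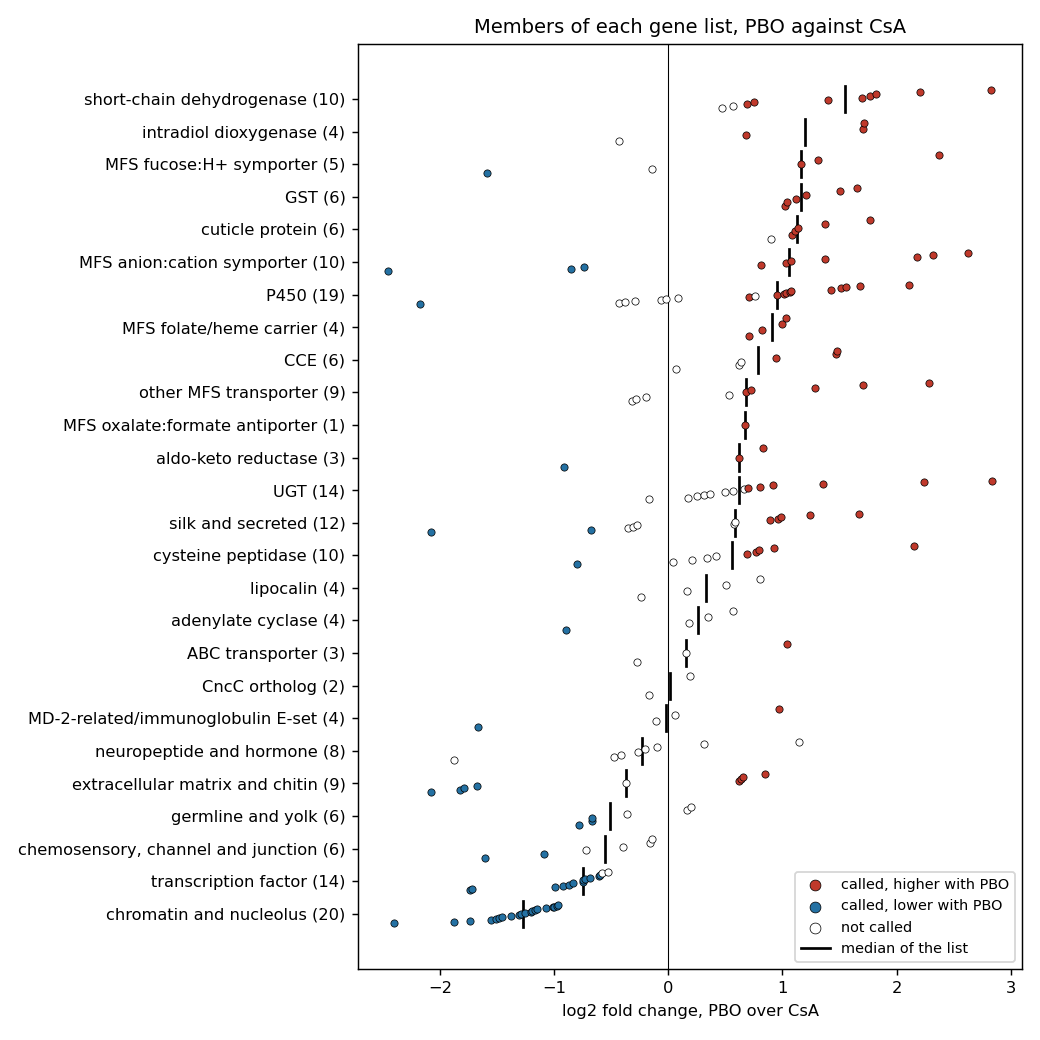
log2 FC of PBO over CsA (x axis) for each gene tested in each of the 26 lists (y axis, with the number tested in brackets); red points are DEGs higher with PBO, blue points DEGs lower with PBO, white points genes not called, and bars are list medians. All 20 chromatin and nucleolus genes lie between -2.40 and -0.96, and all 6 GSTs lie between 1.02 and 1.65.

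DEGs also lay beside each other. In the gene order given by the IDs, 344 of the 1242 DEGs (27.7%) stood in 151 runs of neighbouring tested genes called in the same direction, 76 of the higher DEGs in 30 runs and 268 of the lower DEGs in 121 runs. Over all genes tested, 2.5% were higher and 7.26% lower with PBO. How many DEGs would adjoin another by position alone was not computed, so these counts do not show clustering. The longest run was of 6 genes on scaffold 8, tetur08g06330 to tetur08g06400, all higher with PBO, of which 4 are sialins. Their strongest is tetur08g06360, described above, and tetur08g06340 stood at 22.00, 13.2, 25.96 and 26.1 CPM with PBO, against 5.76, 5.61, 3.56 and 2.52 CPM with CsA (log2 FC 2.32 ± 0.22 (SE), adjusted p = 1.2e-07). The sialin tetur08g06370 stood at 4.41, 4.19, 5.79 and 5.07 CPM with PBO, against 0.937, 0.946, 1.23 and 0.861 CPM with CsA (log2 FC 2.29 ± 0.18 (SE), adjusted p = 7.8e-09), and tetur08g06330, the least changed sialin, at 26.4, 17.4, 24.5 and 23.02 CPM with PBO, against 15.7, 14.6, 11.8 and 13.1 CPM with CsA (log2 FC 0.72 ± 0.17 (SE), adjusted p = 0.0023). Sialins that lie side by side may resemble each other in sequence, and reads shared between copies may be lost or split in counting.

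A run of 5 higher DEGs on scaffold 6, tetur06g04900 to tetur06g04980, held 4 short-chain dehydrogenases, among them tetur06g04970 and tetur06g04940, the second at 20.2, 16.1, 24.9 and 26.8 CPM with PBO, against 4.02, 7.70, 8.28 and 4.97 CPM with CsA (log2 FC 1.82 ± 0.23 (SE), adjusted p = 5.6e-06). Another run of 5 on the same scaffold, tetur06g04510 to tetur06g04580, held CYP392A16 and 3 hypothetical proteins, of which tetur06g04580 stood at 31.6, 43.6, 31.2 and 29.3 CPM with PBO, against 6.70, 8.45, 8.14 and 9.07 CPM with CsA (log2 FC 2.07 ± 0.12 (SE), adjusted p = 1.2e-11). On scaffold 1, the delta GSTs tetur01g02480 and tetur01g02500 enclosed a called gene without a description, and tetur01g02500 stood at 113, 116, 124 and 118 CPM with PBO, against 49.5, 47.8, 54.0 and 65.6 CPM with CsA (log2 FC 1.11 ± 0.09 (SE), adjusted p = 1.5e-08). On scaffold 3, the called run tetur03g05020 to tetur03g05040 held CYP392D6 (tetur03g05030), which stood at 227, 272, 309 and 318 CPM with PBO, against 123, 114, 138 and 160.4 CPM with CsA (log2 FC 1.07 ± 0.16 (SE), adjusted p = 3.1e-05), between a probable pseudogene and a P450 fragment. A run of 5 lower DEGs, tetur01g05090 to tetur01g05130, held genes without a description at under 4 CPM.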

How the data were processed

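RNA-seq counts of 24 libraries were deposited, 4 for each of 6 groups, and the 8 libraries of PBO and CsA are compared here. Per the submitters' processing notes, the tools behind the deposited table were STAR 2.5.0a for alignment and HTSeq 0.6.0 for counting, with FastQC 0.11.4 for read quality and SAMtools 0.1.19 for sorting. The deposited values of the authors are raw counts for 19087 genes, of which 1831 had no read in any library. Reads in more than 1 place are left out by HTSeq's default, which lowers genes with near-identical copies.

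The software was edgeR 4.0.16, with DESeq2 1.42.0 and limma 3.58.1 as alternatives, under R 4.3.3. filterByExpr over the 6 groups kept 12736 genes, libraries were scaled by TMM, and edgeR's quasi-likelihood test was fitted to all 24 libraries, which share 1 estimate of the spread (biological coefficient of variation 9.80%). P-values were adjusted by Benjamini-Hochberg over all genes tested. DEGs had an adjusted p under 0.05 together with an FC of at least 1.5. log2 CPM for levels and principal components used a prior count of 2. The steps were tested on simulated data in which no library stood apart from its group, so that test does not cover a library like CsA4. The totals of 14432480 to 16664654 counts set the counting precision, and CPM under 1 rest on few reads (115 DEGs had a mean under 1 CPM in the higher treatment).

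The comparison, the gene lists and the genes named were chosen with earlier results of these data known. Lists came from descriptions in the study's tables of DEGs. Named genes were, among DEGs whose libraries did not overlap and whose mean was at least 1 CPM in the higher treatment, the 12 highest and 12 lowest log2 FCs with a description and the 5 highest and 5 lowest of any kind, up to 6 DEGs per list, every member of lists of 4 or fewer, and the genes the study names. Genes given from runs of neighbours, CYP392E8, Med1, the vitellogenins and both phosphate transporter-like genes that were lower with PBO were added after their values were seen. Alternatives were other tools, scalings, filters and thresholds, a replicate block, a fit of the 8 libraries and each library left out, with 1 added after seeing the data (the 8 libraries without CsA4). Sequences and coordinates are not used here, because no annotation at hand carried these gene IDs.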

Additional observations from a re-analysis of the deposited data

Results flagged for a closer look

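For each named gene, a library was marked where it lay far from the other 3 of its treatment by Dixon's test at the 95% level. This marked 17 of 260 gene and treatment pairs, and chance marks about 1 in 20. CsA4 was marked in 5. It was high for the glycine-rich gene tetur02g05490 (1.39 CPM, the others 0.268 to 0.291) and the cuticle protein tetur04g01610 (33.6 CPM, the others 15.0 to 16.7), and low for the ABC transporter tetur14g02300 (2.78 CPM, the others 5.14 to 5.56), tetur23g01340 (0.795 CPM, the others 1.27 to 1.35) and the ionotropic receptor tetur30g01550 (2.65 CPM, the others 4.82 to 5.16).

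PBO3 was marked for tetur01g14780 (3.61 CPM), tetur03g05020 (39.8 CPM) and tetur05g05190 (173 CPM, the others 175 to 176). PBO2 was marked for tetur01g10820 (33.5 CPM), tetur02g07750 (145 CPM) and tetur28g01140 (101 CPM). PBO4 was marked for tetur01g06580 (10.1 CPM) and tetur04g06770 (26.3 CPM), and PBO1 for tetur01g12910 (0.613 CPM). Among CsA libraries, CsA3 was marked for tetur03g00800 (2.47 CPM) and tetur16g03490 (12 CPM), and CsA1 for tetur11g05100 (19 CPM).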

How the results depend on the processing

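Against 318 DEGs higher and 924 lower with PBO, the count of DEGs fell to 173 higher and 534 lower (707) with DESeq2's normal prior and to 70 higher and 146 lower (216) in a test against an FC of 1.5, and it was 1890 higher and 2194 lower (4084) with the adjusted p alone. Leaving out each library in turn gave 262 to 384 higher and 643 to 1270 lower (913 to 1654 in all), lowest in total without CsA1 and highest without CsA4. The 8 libraries without CsA4, chosen after seeing the data, gave 359 higher and 1248 lower. The replicate numbers did not pair the libraries (correlations of 0.07, 0.08, 0.35 and -0.08), and a replicate block gave 328 higher and 937 lower. Other tools, scalings and filters gave 248 to 395 higher and 732 to 971 lower. A fit of the 8 PBO and CsA libraries only, whose spread is not pooled with the other groups, gave 285 higher and 810 lower. Scaling by library totals moved the median log2 FC of all genes to 0.07 and the share of higher DEGs to 33.2%, against 25.6%. No DEG changed direction in any setting. Of 109 named DEGs, 69 were called in every setting, 40 were lost in the test against an FC of 1.5, and 6 in some fit without 1 library. Signs changed only in genes that were not called. With each library left out in turn, the log2 FC ran from -0.25 to 0.061 for tetur01g02650 (above 0 without PBO4 or CsA3), from -0.059 to 0.24 for tetur14g02070 (below 0 without PBO2, CsA1 or CsA2), from -0.027 to 0.26 for tetur14g02300 (below 0 without CsA4) and from -0.023 to 0.40 for tetur16g03490 (below 0 without CsA2 or CsA4). In the 8 libraries without CsA4 it was -0.040 for tetur14g02300 and -0.014 for tetur16g03490. The cause of these changes was not tested.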
